A study of Arabidopsis thaliana with 12 samples.

Results

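XERICO (AT2G04240), MAMI (AT5G54110) and DI21 (AT4G15910) are Arabidopsis thaliana genes tied to drought, salt or osmotic stress. They were chosen as named stress genes whose probe is paired with exactly 1 gene (probes 664, 3589 and 676), and they are 3 of the 691 genes with such a probe in a table of 3439 probes. By their locus names they lie on chromosomes 2, 5 and 4. Total RNA of wild-type plants of the ecotype Wassilevskija was measured on an expression array in 12 samples. The plants of 6 samples were treated with 100 mM proline for 6 h, which by the labels brings cellular proline to a toxic level, and those of the other 6 were given water. All plants carried the same wild-type genotype, and the labels name no organ, plant age or duration of the water treatment, so proline and the length of treatment cannot be told apart. Nothing in the labels says that the 6 samples of a group came from separate plants or cultures, so the p-values rest on a spread between samples that may be technical.

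In drought or high salt, plant cells make the hormone abscisic acid, whose receptors block a set of phosphatases and thereby free kinases that switch on protective genes. Proline accumulates under the same stresses as a compatible solute, while proline supplied in excess is itself harmful and is broken down in mitochondria. XERICO encodes a small RING-H2 zinc-finger protein, a type of protein found among ubiquitin ligases, and plants that overproduce it hold more abscisic acid and tolerate drought better. DI21 (drought-induced 21) encodes a protein of the late embryogenesis abundant class, a group of hydrophilic proteins that build up in drying tissue. MAMI (membrane-associated mannitol-induced) is named for its induction by mannitol, a sugar alcohol used to withdraw water from cells.

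The deposited values were linear intensities between 0 and 100, and precision is limited by the number of arrays. The median deposited intensity of a sample lay between 0.171 and 0.188 in water and between 0.213 and 0.361 in proline, with proline samples 3 and 4 highest. Summed intensities ran from 3172 to 3546. Levels below are given first as deposited and then after quantile normalization, which gives every sample the same distribution of values. Neighbouring samples of a group (1 with 2, 3 with 4, 5 with 6) resembled each other (consensus correlation 0.543), and samples with the same number in both groups deviated together, so values by number stand beside the group means. Proline was compared with water in limma on log2 intensities, where p-values were adjusted by Benjamini-Hochberg across the 3097 tested probes and called under 0.05. At that threshold 38.0% of tested probes were called, 17.1% higher and 20.9% lower with proline, and 0 of the 3 genes were called. This split moved with the scaling, to 38.6% higher and 5.77% lower in the values as deposited and to 32.6% higher and 7.30% lower with total-intensity scaling. By limma's unadjusted p, 1 of the 3 genes, XERICO, fell under 0.05, as did 45.1% of tested probes. The labelled plants could not be checked against a full marker set: of 14 green tissue markers only LHB1B2, which encodes a chlorophyll-binding antenna protein, had a probe of its own, and of 5 root markers none had.

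XERICO, the RING-H2 protein gene, was lower with proline in the mean, and the difference did not pass the test. Its deposited intensity was 3.83, 3.79, 4.25, 4.26, 3.15 and 3.08 in water samples 1 to 6. In proline samples 1 to 6 it was 4.13, 4.07, 3.13, 2.91, 2.99 and 2.83. Samples 5 and 6 were the lowest in water, samples 1 and 2 were the highest in proline, and the groups overlapped. After quantile normalization the level was 4.07, 4.11, 4.68, 4.77, 3.23 and 3.19 in water samples 1 to 6. It was 3.83, 3.69, 3.17, 2.88, 2.73 and 2.43 in proline samples 1 to 6. Samples 5 and 6 were the lowest of each group on this scale, and water samples 5 and 6 lay below proline samples 1 and 2. The mean level was 4.01 ± 0.68 in water and 3.12 ± 0.55 in proline (SD, 6 samples each), a log2 fold change of -0.36 (SE 0.15, 95% interval -0.68 to -0.04, limma adjusted p = 0.0738). The exact two-sided permutation test, over all 924 ways to assign 6 samples to each group, gave p = 0.0368 for XERICO, without adjustment. In RNA of whole samples, fewer cells of a type and less RNA per cell cannot be told apart.

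**Figure D1:**
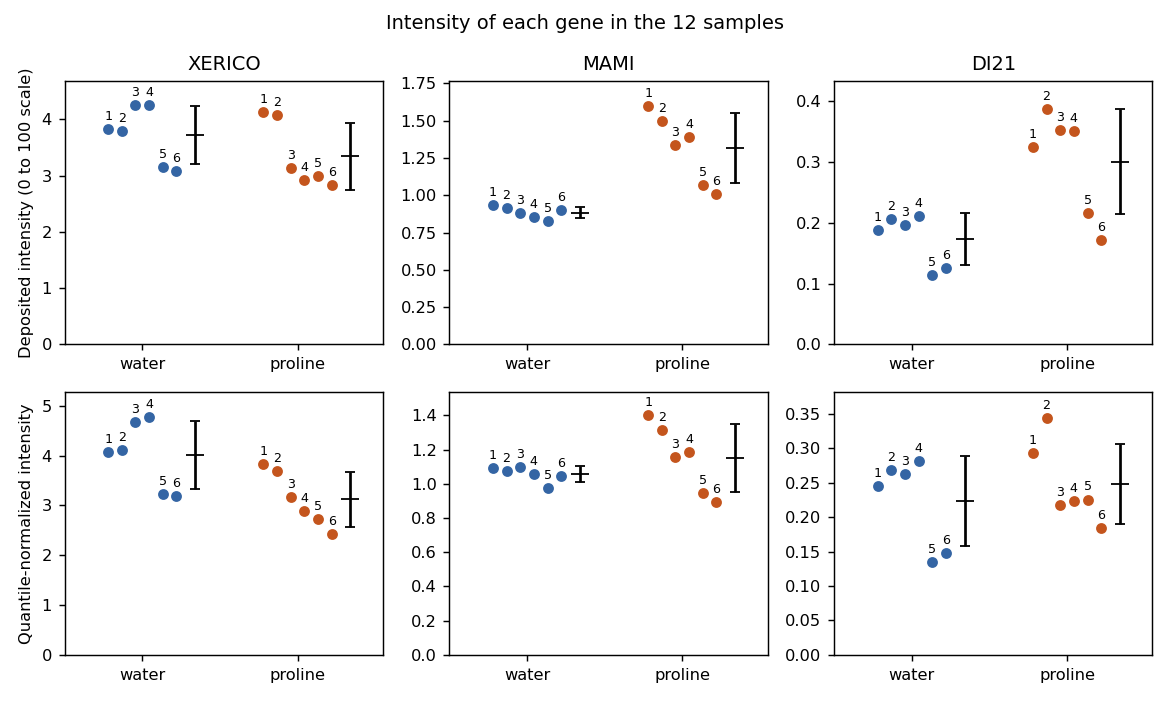
Intensity of XERICO, MAMI and DI21 (columns) in each sample, as deposited (upper row) and after quantile normalization (lower row); every vertical axis is linear and starts at 0. Points are samples labelled with their replicate number, and the bar beside each group is the mean with its SD (n = 6). In the deposited values all 6 proline samples lie above all 6 water samples for MAMI, and after quantile normalization the groups overlap for all 3 genes.

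After quantile normalization XERICO was lower in proline at every replicate number, and in the values as deposited it was not. The quantile-normalized difference of proline minus water was -0.09, -0.15, -0.56, -0.73, -0.24 and -0.39 on the log2 scale for numbers 1 to 6. It was smallest at numbers 1 and 2 and largest at numbers 3 and 4. Of all tested probes, 21.8% were lower in proline at all 6 numbers after quantile normalization, so this sign pattern is common on the array. The deposited differences were 0.11, 0.10, -0.44, -0.55, -0.07 and -0.12 for numbers 1 to 6, so XERICO was higher in proline at numbers 1 and 2 on that scale. With the replicate number as a block XERICO passed (SE 0.11, limma adjusted p = 0.0373), in a fit that called 22.5% of probes lower. With samples 1 and 2, 3 and 4, and 5 and 6 of a group averaged first, it did not pass (SE 0.22, 95% interval -0.88 to 0.16, adjusted p = 0.303), in a fit that called 17.1% of probes, nor with these means and the number pair as a block (SE 0.18, adjusted p = 0.214). The 3 means were 4.09, 4.73 and 3.21 in water and 3.76, 3.02 and 2.58 in proline. The exact permutation p over these means was 0.20, where the design allows no p below 0.10.

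The size of the XERICO difference depended on the scaling, and its sign did not under those run. It was -0.74 under median centring (95% interval -1.19 to -0.28, adjusted p = 0.0152, a fit with 22.3% of probes lower), and it passed there with the block too (adjusted p = 0.0340, 23.7% of probes lower). It was -0.22 under cyclic loess (adjusted p = 0.239), -0.27 with total-intensity scaling (adjusted p = 0.161) and -0.16 in the values as deposited (adjusted p = 0.375). In the values as deposited the median tested probe was 0.41 higher with proline. Relative to that median XERICO stood at -0.58 there, against -0.33 after quantile normalization. With the means of pairs and no term for the number pair, XERICO did not pass under median centring (limma adjusted p = 0.157).

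MAMI, named for mannitol induction, was higher with proline in the values as deposited and did not pass the test after quantile normalization. Its deposited intensity was 0.935, 0.912, 0.878, 0.851, 0.830 and 0.899 in water samples 1 to 6. In proline samples 1 to 6 it was 1.60, 1.50, 1.34, 1.39, 1.07 and 1.01. Every proline sample stood above every water sample, as for 24.3% of probes in the deposited values, and proline samples 5 and 6 were closest to water. The quantile-normalized level was 1.09, 1.07, 1.10, 1.06, 0.976 and 1.05 in water samples 1 to 6. It was 1.40, 1.32, 1.15, 1.18, 0.946 and 0.895 in proline samples 1 to 6. On this scale proline samples 5 and 6 fell below all water samples, while samples 1 to 4 stayed above them.

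The mean quantile-normalized level of MAMI was 1.06 ± 0.04 in water and 1.15 ± 0.20 in proline (SD, 6 samples each). The SD was 4.19% of the mean in water and 17.3% in proline. The log2 fold change was 0.10 (SE 0.12, 95% interval -0.15 to 0.36, limma adjusted p = 0.526), and the exact two-sided permutation p was 0.37. By number, the differences were 0.36, 0.29, 0.07, 0.16, -0.04 and -0.22 for 1 to 6, positive at numbers 1 to 4 and negative at 5 and 6. The means of pairs differed by 0.33 for samples 1 and 2, 0.12 for samples 3 and 4, and -0.13 for samples 5 and 6.

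In the values as deposited MAMI passed as higher with proline, with a log2 fold change of 0.55 (SE 0.13, 95% interval 0.28 to 0.83, limma adjusted p = 0.00324). That fit called 38.6% of probes higher. The exact two-sided permutation p on these values was 0.00216, the smallest this test can give over 12 samples. It treats the 12 samples as separate, although neighbouring samples of a group resembled each other. Over the means of pairs the design allows no p below 0.10, and that test was not run on the deposited values. Relative to the median of all tested probes MAMI stood at 0.14 in the values as deposited and at 0.13 after quantile normalization. With the deposited means of pairs, in a fit with no term for the number pair, MAMI did not pass (limma adjusted p = 0.108). With total-intensity scaling it passed (0.45, adjusted p = 0.0110), as did 32.6% of probes in that direction, under cyclic loess it did not (0.24, adjusted p = 0.135), and under median centring the estimate was -0.02 (adjusted p = 0.933).

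**Figure D2:**
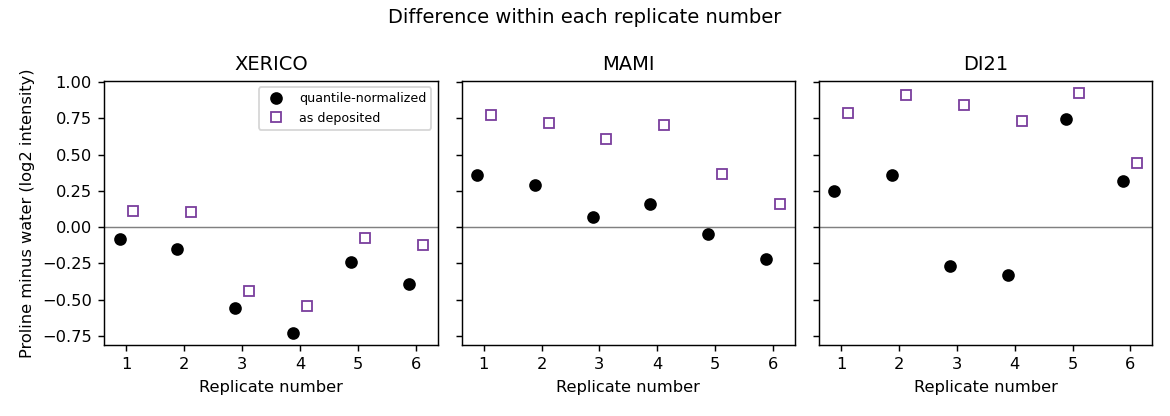
Proline minus water difference in log2 intensity for XERICO, MAMI and DI21 at each replicate number from 1 to 6. Filled circles are quantile-normalized values and open squares are values as deposited, without error bars since each point is 1 sample minus 1 sample. All 6 circles lie below 0 for XERICO, and all 6 squares lie above 0 for MAMI and for DI21.

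DI21, the late embryogenesis abundant class gene, likewise passed the test as higher with proline in the values as deposited and not after quantile normalization. Its deposited intensity was 0.188, 0.207, 0.197, 0.211, 0.114 and 0.126 in water samples 1 to 6. In proline samples 1 to 6 it was 0.325, 0.387, 0.352, 0.351, 0.216 and 0.172. Samples 5 and 6 were the lowest in both groups, and the groups overlapped because proline sample 6 lay below water samples 1 to 4. The quantile-normalized level was 0.246, 0.268, 0.262, 0.282, 0.135 and 0.148 in water samples 1 to 6. It was 0.293, 0.343, 0.218, 0.224, 0.225 and 0.184 in proline samples 1 to 6. Water samples 1 to 4 now lay among the proline samples, and water samples 5 and 6 were below all of them.

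The mean quantile-normalized level of DI21 was 0.223 ± 0.065 in water and 0.248 ± 0.059 in proline (SD, 6 samples each). The log2 fold change was 0.18 (SE 0.22, 95% interval -0.30 to 0.66, limma adjusted p = 0.565), and the exact two-sided permutation p was 0.461. Its residual SD of 0.41 on the log2 scale was larger than that of 66.7% of tested probes, against 35.6% for XERICO (0.25) and 17.2% for MAMI (0.19). The differences by number were 0.25, 0.36, -0.27, -0.33, 0.74 and 0.32 for 1 to 6. They were negative at numbers 3 and 4, where the deposited differences were 0.84 and 0.73. Proline samples 3 and 4 had the highest median intensity of all samples, and the part of that shift in the DI21 values was not tested. Without proline samples 3 and 4, the estimate was 0.25 (adjusted p = 0.519).

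In the values as deposited DI21 was higher with proline at all 6 numbers, by 0.79, 0.91, 0.84, 0.73, 0.92 and 0.44 on the log2 scale for numbers 1 to 6. In those values 36.0% of probes were higher at all 6 numbers. The log2 fold change was 0.77 (SE 0.24, 95% interval 0.26 to 1.29), and DI21 passed there (limma adjusted p = 0.0187). With the replicate number as a block it also passed there (SE 0.11, adjusted p = 0.00125, 38.1% of probes higher). With the deposited means of pairs DI21 did not pass (SE 0.34, limma adjusted p = 0.153). That fit had no term for the number pair, and the means with the number pair as a block were not run on the deposited values. Relative to the median of all tested probes, DI21 stood at 0.36 in the values as deposited and at 0.21 after quantile normalization. It passed with total-intensity scaling (0.67, adjusted p = 0.0401) and not under median centring (0.20, adjusted p = 0.530) or cyclic loess (0.19, adjusted p = 0.554).

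**Figure D3:**
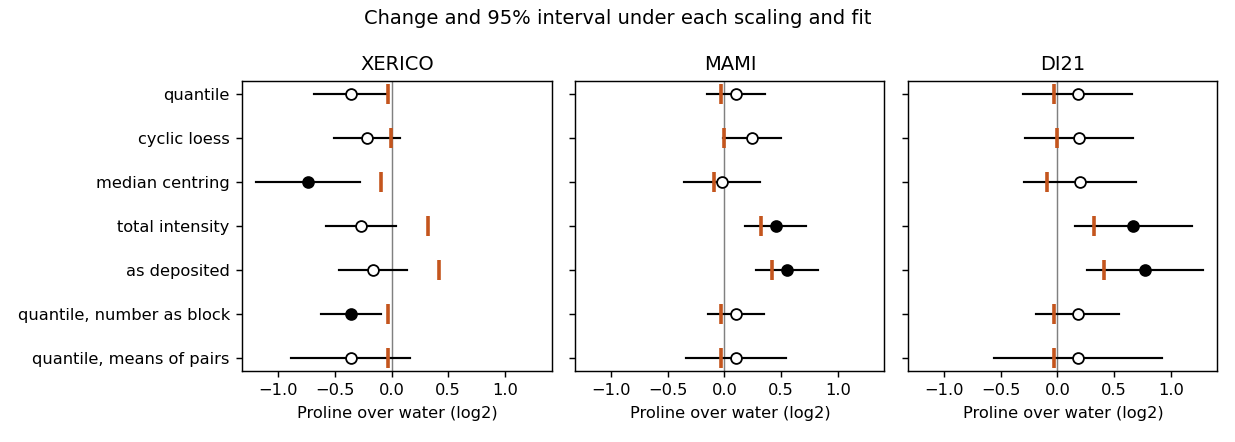
Log2 fold change of proline over water for XERICO, MAMI and DI21 under each scaling run and, for quantile-normalized values, with the replicate number as a block or the means of pairs. Circles are estimates, filled where the limma adjusted p is under 0.05, horizontal lines are 95% intervals, and the vertical orange mark is the median of all tested probes in the same fit. XERICO lies to the left of that mark in every fit shown, and MAMI and DI21 lie to its right. All fits use the same 12 samples, and the quantile-normalized fits share the same estimate and median.

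Under quantile normalization, cyclic loess, median centring, total-intensity scaling and the values as deposited, XERICO lay below the median of all tested probes, and MAMI and DI21 lay above it. These scalings re-express the same 12 samples, so they are not separate evidence. With quantile-normalized means of pairs, DI21 lay below the median (-0.09) when the mean of water samples 5 and 6 was left out. With samples 1 and 2, 3 and 4, or 5 and 6 of both groups alone, DI21 stood at 0.36, -0.30 and 0.57 from the median. MAMI stood at 0.38, 0.12 and -0.095 in the same fits. Across the scalings with all 12 samples, the distance for XERICO ran from -0.21 under cyclic loess to -0.64 under median centring. For MAMI it ran from 0.08 under median centring to 0.25 under cyclic loess, and for DI21 from 0.19 under cyclic loess to 0.36 in the values as deposited. With the 12 samples taken as separate, the distance was smaller than the SE of the fold change for MAMI under median centring (0.08, SE 0.15) and for DI21 after quantile normalization (0.21, SE 0.22) and under cyclic loess (0.19, SE 0.22). With means of pairs it was also smaller for MAMI after quantile normalization (0.13, SE 0.18) and as deposited (0.14, SE 0.21), and for DI21 under median centring (0.29, SE 0.32). It stayed larger with those means for MAMI under cyclic loess (0.25, SE 0.19) and for DI21 as deposited (0.36, SE 0.34).

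The ratio of a pair of the genes within a sample does not depend on any factor that scales the whole sample, and it was described for the 3 pairs with no test. A shift that differs between bright and dim probes does not cancel in it, and XERICO was the brightest of the 3. A change in such a ratio shows unequal change and does not say which gene moved. The log2 ratio of the deposited intensities of XERICO over MAMI was 2.03, 2.06, 2.28, 2.32, 1.92 and 1.78 in water samples 1 to 6. In proline samples 1 to 6 it was 1.37, 1.44, 1.23, 1.07, 1.49 and 1.49, below every water sample. The mean was 2.07 ± 0.21 in water and 1.35 ± 0.17 in proline (SD, 6 samples each), a difference of -0.72. XERICO over DI21 had a mean log2 ratio of 4.45 ± 0.21 in water and 3.52 ± 0.39 in proline, a difference of -0.94. It ranged from 4.20 to 4.79 across the water samples and from 3.05 to 4.04 across the proline samples, again without overlap. Both XERICO differences, -0.72 and -0.94, were smaller after quantile normalization, where the log2 fold changes of XERICO, MAMI and DI21 were -0.36, 0.10 and 0.18. MAMI over DI21 was 2.39 ± 0.37 in water and 2.17 ± 0.25 in proline, with overlapping ranges of 2.01 to 2.87 and 1.92 to 2.55. Among all pairs of tested probes with exactly 1 gene, the groups did not overlap for 21.6%, so separation of this kind is not particular to XERICO.

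**Figure D4:**
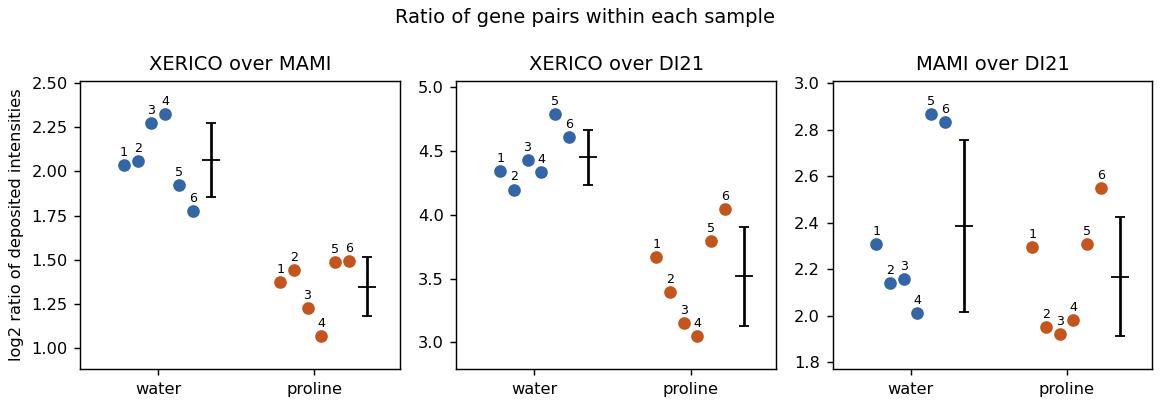
Log2 ratio of deposited intensities within each sample for XERICO over MAMI, XERICO over DI21 and MAMI over DI21; the vertical axes differ between panels and do not start at 0. Points are samples labelled with their replicate number, and bars are the mean and SD (n = 6). The water and proline points separate in the first and second panels and overlap in the third.

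The deviations from the group means showed which samples the genes shared. Over the 12 samples, which share the number pairs described above, deviations of XERICO and DI21 correlated at 0.912, those of XERICO and MAMI at 0.772 and those of MAMI and DI21 at 0.609 (Pearson's r, a description). How high r runs over all pairs of probes was not examined. Genes taken up below reached 0.882 with DI21 (CCB3) and 0.892 with MAMI (AT5G38310). They were picked from 617 probes for high r over the same samples. High values therefore occur outside the 3 genes, but these picked genes do not show how often. In all 3 genes samples 5 and 6 lay below the group mean in both groups. In DI21 the deviations of water samples 5 and 6 were -0.67 and -0.54 on the log2 scale, the farthest from 0 in that gene. In XERICO the farthest were -0.34 in proline sample 6 and 0.31 in proline sample 1, and in MAMI -0.34 in proline sample 6 and 0.30 in proline sample 1.

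The genes most like each of the 3 over the 12 samples were sought among the 617 other tested probes with exactly 1 gene, by Pearson's r of the quantile-normalized log2 values. For XERICO they were AT3G52070 (r = 0.873), LHB1B2 (r = 0.869) and OTP70 (r = 0.837), a pentatricopeptide repeat gene of the class that processes organelle RNA. Their log2 fold changes were -0.81, -0.46 and -0.64, against -0.36 for XERICO. On deviations from the group means, which leave out the group difference, r was 0.847, 0.793 and 0.776. The level of LHB1B2 was 13.2 ± 2.4 in water and 9.51 ± 0.52 in proline, and other genes of its family are near-identical copies, so which of them its probe measured is uncertain. For MAMI the most alike were AT1G63720 (r = 0.858), AT5G62840 (r = 0.845) and AT5G38310 (r = 0.830), with log2 fold changes of 0.10, 0.43 and -0.02. For DI21 they were AT2G46190 (r = 0.824), CCB3 (r = 0.793), a factor of cytochrome b6f assembly, and AT5G49120 (r = 0.793), with log2 fold changes of 0.62, -0.33 and 0.24. These coefficients are the highest of many and include the shared number pairs and the difference between water and proline, so the fold changes of these genes are partly set by how they were chosen.

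The rest of the stress pathway was hardly covered by probes of a single gene. Of 111 listed genes of abscisic acid synthesis, breakdown, perception and signalling, of drought, salt and cold responses, of proline metabolism and of families or regulators related to the 3 genes, DI21 alone had a probe of its own. A further 2, both in the list of drought, salt and cold response genes, were paired only with probes shared by several genes and are not reported here. SIS (AT5G02020, salt induced serine rich), named for induction by salt and chosen after its values were seen, had a quantile-normalized level of 0.344 ± 0.117 in water and 0.397 ± 0.172 in proline (SD, 6 samples each). Its log2 fold change was 0.12 (SE 0.35, limma adjusted p = 0.823). In the values as deposited the log2 fold change of SIS was 0.81 (SE 0.28, limma adjusted p = 0.0325), in a fit that called 38.6% of probes higher. Its lowest samples were numbers 3 and 4 in both groups, at 0.223 and 0.222 in water and 0.199 and 0.154 in proline, whereas samples 5 and 6 were the lowest of each group for XERICO.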

How the data were processed

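The authors' deposited table held linear intensities between 0 and 100 in 12 samples, judged from the values. The sources used here do not give the array type, scanning, background correction or scaling. Groups and replicate numbers came from the sample titles. Probes were named through GEO's platform annotation, which can be old: 692 probes had 1 gene, 870 had several and 1877 are unnamed here. Gene numbers of 690 of them matched assembly TAIR10.1. Its coordinates are not printed, since the authors' build is unknown.

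Values were quantile-normalized, values below 0.0377 (the 5th percentile of positive deposited values) were raised to that floor and log2-transformed, and 342 probes that never left the floor were dropped. The test was limma 3.58.1 under R 4.3.3 (lmFit and eBayes, two-sided), checked on simulated data with independent samples. Those data held no likeness between neighbouring or same-numbered samples, so the check does not cover that setting. For the numbers 1 to 6, deviations of the water and the proline sample from their group means correlated at 0.46, 0.473, 0.289, 0.304, 0.199 and 0.162. Every one was over 0.1, the mark used here for pairing by number. The highest r of each water sample with a proline sample of another number was 0.159, 0.084, 0.168, 0.174, 0.082 and 0.083. The same-number value was the higher at each number. Values of 0.159, 0.168 and 0.174 between unlike numbers also pass the mark, so the mark alone does not establish pairing. The main limma fit and the permutation tests have no term for the number, and the fit with the number as a block stands beside them where it changes a call.

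The genes, lists and alternatives were chosen with earlier results of these data known. Beside the 3 genes, the naming rule took measured list members and, for each gene, the 3 single-gene probes most correlated with it. Alternatives covered scaling, floor, probe filter, variance model, the replicate number as a block, means of pairs and samples left out. Total-intensity scaling, scalings combined with the block or the means, and leaving out or keeping alone a number pair of both groups were added after the data were seen. Planned descriptions of promoters and proteins were not made, because no sequence table was used here.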

Additional observations from a re-analysis of the deposited data

Results flagged for a closer look

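Of 34 groups of 6 values examined for a sample far from the others, 1 stood apart, where chance gives about 1 in 20. OTP70, one of the genes most like XERICO, stood at 0.301 in proline sample 6 after quantile normalization, against 0.421 to 0.450 in the other proline samples. No group of XERICO, MAMI or DI21 held such a sample.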

How the results depend on the processing

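XERICO kept its sign in all alternatives run, and it passed with the replicate number as a block (-0.36; limma adjusted p = 0.0373), under median centring (-0.74; adjusted p = 0.0152) and under median centring with the block (-0.74; adjusted p = 0.0340). Leaving out 1 sample gave -0.42 to -0.29 for XERICO. It passed without water sample 5 (limma adjusted p = 0.0495), water sample 6 (0.0461) or proline sample 1 (0.0442). Those fits called 19.5%, 19.7% and 20.5% of probes lower. With any other single sample left out XERICO did not pass (limma adjusted p from 0.0542 to 0.149). Leaving out 1 mean of a pair gave -0.51 to -0.23. MAMI passed in the values as deposited without and with the block (0.55 in both; adjusted p = 0.00324 and 0.00876) and with total-intensity scaling (0.45). Its sign turned under median centring with 12 samples, the means of pairs or the block (-0.019 in each), and without samples 1 and 2 of both groups. Leaving out 1 sample gave 0.04 to 0.17 for MAMI, and 1 mean of a pair -0.026, without proline samples 1 and 2, to 0.25. DI21 passed in the values as deposited without and with the block (0.77 in both) and with total-intensity scaling (0.67). Leaving out 1 sample gave 0.04, without water sample 5, to 0.26 for DI21, and 1 mean of a pair -0.12, without water samples 5 and 6, to 0.35, with -0.015 without proline samples 1 and 2. Where 1 mean of a pair was left out, the group kept 2 values. Without samples 1 and 2, 3 and 4, or 5 and 6 of both groups, the estimates were -0.48, -0.22 and -0.38 for XERICO, -0.0088, 0.096 and 0.22 for MAMI, and 0.11, 0.42 and 0.0013 for DI21, none past the threshold.

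Over all tested probes 1176 were called, and 1078 to 1129 with 1 sample left out. The means of pairs called 530 probes, 540 with the replicate block, and with 1 mean left out between 159 and 407 (230, 159 and 274 without water samples 1 and 2, 3 and 4, or 5 and 6, and 324, 407 and 379 without the same proline samples). The number pairs as a random block called 757. With the means of pairs, 638 were called in the values as deposited, 372 under median centring and 527 under cyclic loess. The share of calls that were higher moved with the scaling, as 529 of 1176 after quantile normalization, 454 of 1140 under median centring, 1006 of 1231 with total-intensity scaling and 1191 of 1369 in the values as deposited. The meaning of 0 and 100 on the deposited scale is unknown, so which scaling fits these arrays was not settled, and the cause of the differences between scalings was not tested. No signal over background is given in the table. The block changed no other call of the 3 genes after quantile normalization.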
